A study of Caenorhabditis elegans with 16 samples.

Results

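The hedgehog-related and patched-related genes of *Caenorhabditis elegans* were examined in mixed-stage embryos of wild-type worms and of *fbxa-215* mutants. Members were chosen by name alone, as the genes whose symbol in the deposited table for 20 °C begins with wrt-, grd-, grl-, hog-, qua-, ptr- or ptc-, which gave 84 of the 21882 genes in the count tables. These were 10 *wrt* (warthog), 16 *grd* (groundhog), 31 *grl* (ground-like) and 23 *ptr* (patched-related) genes, both *ptc* (patched) genes, and 1 gene each of the names *hog* and *qua* (quahog). All 84 are annotated as protein coding. The study sequenced polyadenylated RNA of whole embryos to ask whether the F-box protein FBXA-215 regulates transcription. There were 4 groups of 4 libraries: the wild-type strain N2 and the strain SX3678, which carries *fbxa-215(syb4404)*, each from parents kept at either 20 °C or 25 °C. Both strains were raised at 20 °C and synchronised by bleaching before plating, and embryos were taken from gravid adults by bleaching about 56 h (20 °C batch) or 47 h (25 °C batch) after plating. Temperature, hours and batch therefore changed together and cannot be told apart. The mutant was represented by 1 strain. The methods of the study call its sequencing replicates biological and the labels do not name separate cultures, so the p-values measure the spread between these libraries, part of which may be technical.

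Hedgehog proteins are secreted signals that are processed and given lipid anchors in the secretory pathway, and Patched is the multi-pass membrane receptor that binds them in flies and vertebrates. *C. elegans* has no true Hedgehog and no Smoothened, the membrane protein that relays the signal elsewhere. It has instead an expanded set of secreted relatives, in which a Wart, Ground or Ground-like domain stands in for the signalling part and some members, with QUA-1 and HOG-1, keep the self-cleaving Hog part, and an expanded set of Patched relatives with a sterol-sensing domain. Many of these genes are expressed in the epidermis, in glia and in other cells that lay down apical extracellular matrix, and several are needed for moulting.

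Library totals lay between 10001670 and 16777296 counts. A count of 3, the most that an observed 0 allows, was worth 0.179 to 0.3 CPM (counts scaled by library size) in a library, and this limit, like the exact intervals given for ratios, covers only counting error. The mutated gene itself, *fbxa-215*, had 2170 to 3214 counts in wild-type libraries, 0 in 7 mutant libraries and 1 in the other. Transcripts of adults (vitellogenins and sperm proteins among 10 listed genes) summed to 1.37 to 4.11 CPM in any library, while 18 maternal and 12 early zygotic genes of embryos summed to at least 1821 and 489.5 CPM. A stage score, the mean log2(CPM + 0.5) of muscle, neuron and intestine genes minus that of maternal genes, was between -2.56 and -2.30 in wild type and between -2.82 and -2.51 in mutants at 20 °C. At 25 °C it was between -0.59 and -0.40 in wild type and between -0.90 and -0.73 in mutants, and all mutant libraries lay below the wild-type ones. At 20 °C the strains overlapped only because mutant replicate 1, at -2.51, lay above wild-type replicate 3, at -2.56. In whole embryos, fewer cells of a type and less RNA per cell cannot be told apart.

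Most members were rare in the 20 °C libraries. In wild type at 20 °C, 29 of the 84 reached 10 counts in every library, against 51 at 25 °C, and the mutants gave 29 and 46. Mean levels over 10 CPM were reached by 9 members in wild type and 7 in mutants at 20 °C, and by 21 and 19 at 25 °C. *wrt-7* had 0 counts in all 16 libraries.

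**Figure D1:**
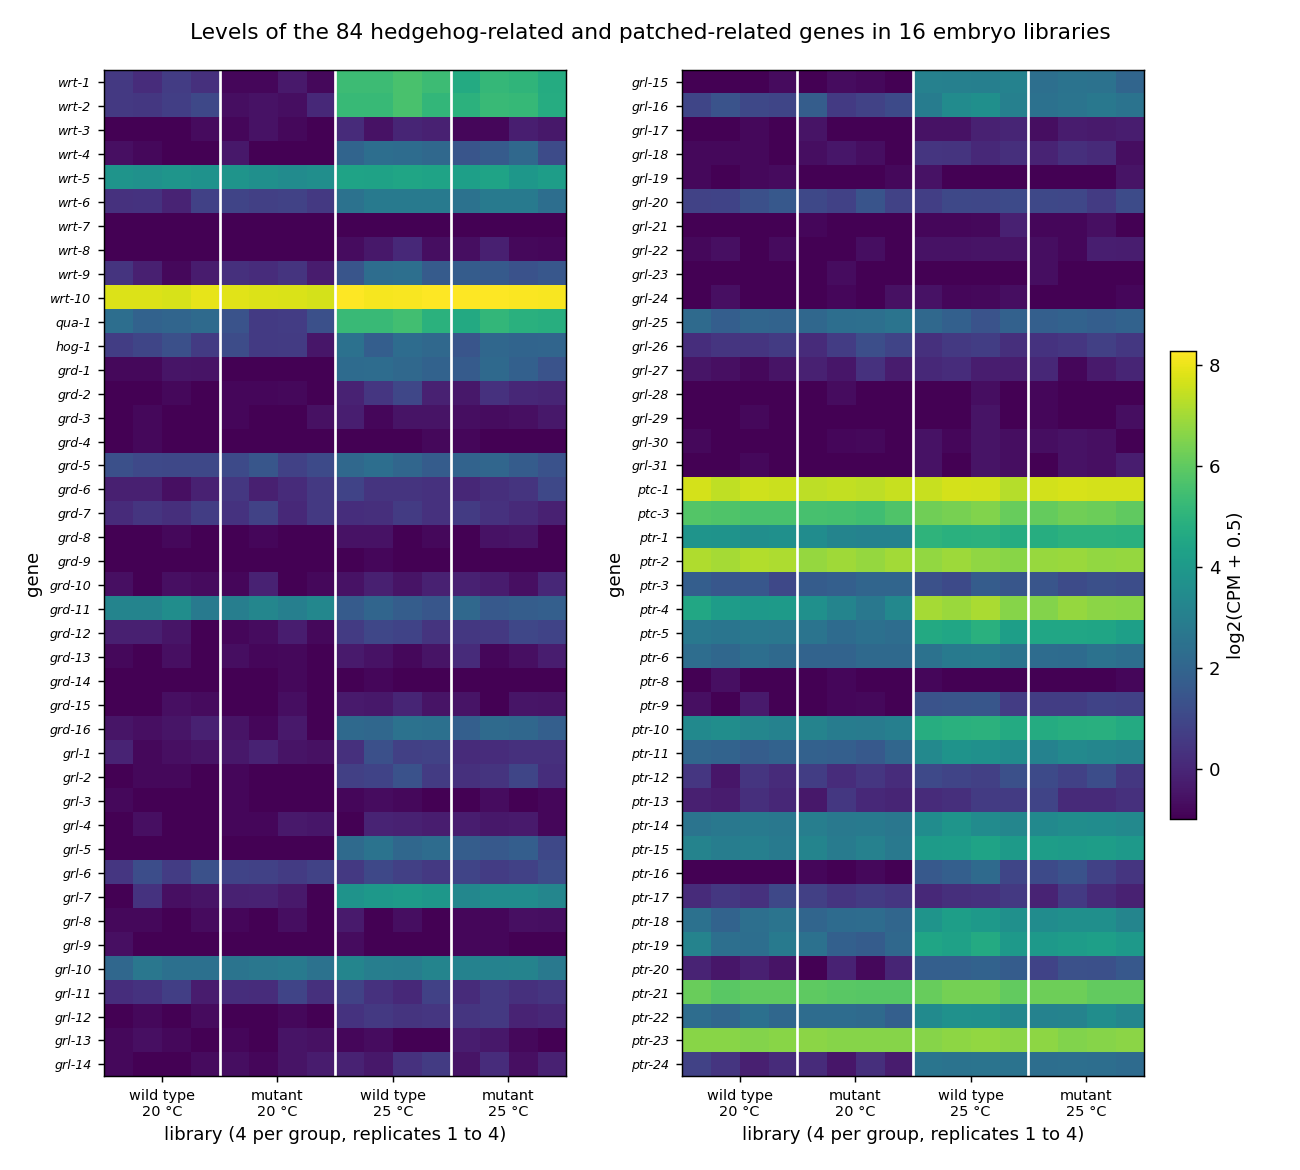
Level of each of the 84 genes (rows, italic names) in each of the 16 libraries (columns, 4 per group), as log2(CPM + 0.5) on the colour scale. Most rows are dark at 20 °C, when 29 members reached 10 counts in every library of either strain, and *wrt-10* and *ptc-1* are bright throughout.

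Per kilobase of annotated exon, so that genes of different length can be compared, the secreted-protein gene *wrt-10* led with a mean of 231 CPM per kb over the 16 libraries. It was followed by *ptr-2* with 41.3, *ptc-1* with 36.8 and *ptr-23* with 28.8 CPM per kb. Next were *ptr-4*, *ptr-21* and *wrt-5* with 19.8, 19.7 and 19.6 CPM per kb, and *ptc-3* with 13.9 CPM per kb, so that these 8 members were 4 *ptr*, 2 *ptc* and 2 *wrt* genes. The order depended on the temperature, since *ptr-4* had 5.74 CPM per kb in wild type at 20 °C and 38.4 at 25 °C, where it was second to *wrt-10* and above *ptr-21* (21.8 CPM per kb). Over all libraries *grd-5* was the highest groundhog gene with 4.78 CPM per kb and *grl-10* the highest ground-like gene with 6.75. At 25 °C in wild type *grl-7* (12.5 CPM per kb) was above *grl-10* (8.14 CPM per kb).

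Of the most abundant members, *wrt-10*, *ptr-23* and both *ptc* genes did not pass the test between strains at either temperature. *wrt-10* had 220.0, 220.3, 209 and 241 CPM in the wild-type libraries at 20 °C and 234, 222, 217 and 206 CPM in the mutants, and 306, 287, 294 and 309.5 CPM against 302, 309, 299 and 292 CPM at 25 °C. None of its 16 estimated counts was whole. The log2 fold changes of mutant over wild type were -0.00 ± 0.04 and 0.01 ± 0.04, and the strains overlapped at both temperatures. *ptr-23*, a patched-related gene, had 98.01, 97.4, 93.3 and 97.2 CPM in wild type and 99.7, 95.5, 96.3 and 97.1 CPM in mutants at 20 °C, and 96.6, 104, 108 and 101 against 104, 92.2, 95.2 and 99.8 CPM at 25 °C, again with overlap. The patched gene *ptc-1*, which is needed for cell division in the germ line, had 203, 166, 194 and 185 CPM in wild type and 165, 172, 164 and 181 CPM in mutants at 20 °C, with a log2 fold change of -0.12 ± 0.05 (adjusted p = 0.0991, edgeR). At 25 °C its levels were 179, 204, 201 and 149.7 CPM in wild type and 200.4, 212, 206 and 202 CPM in mutants, and the log2 fold change was 0.16 ± 0.08 (adjusted p = 0.215, edgeR). *ptc-3*, an essential patched gene with roles in moulting and sterol handling, had 55.5, 52.1, 48.6 and 48.98 CPM against 46.9, 46.004, 42.7 and 51.8 CPM at 20 °C. In the 25 °C libraries it had 77.3, 82.9, 91.02 and 68.7 CPM in wild type and 67.3, 75.7, 71.95 and 64.1 CPM in mutants. Neither *ptc* gene passed the test between strains, and their libraries overlapped at both temperatures.

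In the 20 °C embryos, 7 members were lower in the *fbxa-215* mutant than in wild type and none was higher, of 34 that had enough counts to be tested. The members that fell were the secreted-protein genes *wrt-2* and *qua-1* and the patched-related genes *ptr-4*, *ptr-19*, *ptr-1*, *ptr-10* and *ptr-2*. A member was called at an adjusted p under 0.05 in the quasi-likelihood test of edgeR, adjusted over all 10471 genes tested, and over all of these 9.66% were called lower and 7.65% higher. The 7 calls were 20.6% of the tested members. *wrt-2* and *qua-1* also passed a fold change of 2, the rule of the study, as did 0.86% of all genes downwards. Among name groups, 1 of 4 tested *wrt* genes, the only *qua* gene and 5 of 17 *ptr* genes fell, against none of the 3 *grd*, 6 *grl*, 1 *hog* and 2 *ptc* genes tested. The median log2 fold change over the 34 members was -0.08, beside 0.00 over all genes tested. No higher call was made by DESeq2 or limma-voom either. An unadjusted p under 0.05 was reached by 12 members, but the share of all genes at that threshold was not taken. Without mutant replicate 1 the ground-like gene *grl-25* was called higher, at 0.50 ± 0.17 on the log2 scale (adjusted p = 0.048, edgeR).

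*wrt-2*, a warthog gene known for cycling with the moults, had 13, 12, 15 and 15 counts in the wild-type libraries at 20 °C and 2, 3, 2 and 7 in the mutants. These counts correspond to 0.960, 0.932, 1.14 and 1.54 CPM and 0.131, 0.185, 0.136 and 0.560 CPM, and every mutant library was below every wild-type library. The fitted log2 fold change was -2.17 ± 0.43 (adjusted p = 0.00111, edgeR), and the ratio of summed counts, mutant over wild type, was 0.214 with an exact (Clopper-Pearson) 95% interval of 0.110 to 0.3902. *wrt-2* lies on chromosome X at 3092395 to 3094349 of WBcel235, and 43 of its exonic bases overlap *pccb-1*, a mitochondrial enzyme gene on the opposite strand. The libraries were not directional, so reads from those bases could not be told apart.

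*wrt-1*, another warthog gene, was too low at 20 °C to pass the count filter, with 13, 8, 14 and 7 counts in wild type and 1, 1, 4 and 1 in mutants. The groups did not overlap, and the ratio of summed counts was 0.140 (exact 95% interval 0.0531 to 0.315). Without the filter the log2 fold change was -2.71 ± 0.58 (adjusted p = 8.71e-05, edgeR). *wrt-1* is at 7530996 to 7533246 on chromosome II and ends 15 bases from the end of *wrt-10*, which lies on the opposite strand.

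*qua-1* encodes the single quahog protein, which is needed for moulting. Its levels at 20 °C were 4.58, 3.26, 3.57 and 4.10 CPM in wild type and 2.10, 0.988, 1.09 and 1.92 CPM in mutants, without overlap. The log2 fold change was -1.34 ± 0.23 (adjusted p = 0.000284, edgeR). *hog-1*, which encodes a protein with the Hog part alone, had 1.11, 1.40, 1.90 and 1.02 CPM against 1.70, 0.988, 1.02 and 0.240 CPM, which overlapped, with a log2 fold change of -0.42 ± 0.35 (adjusted p = 0.457, edgeR).

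Of the patched-related genes, *ptr-4*, which is needed for the embryonic precuticle and for moulting, had 22.97, 16.9, 15.6 and 16.2 CPM in wild type and 12.1, 8.65, 6.11 and 9.45 CPM in mutants at 20 °C. The groups did not overlap, and the log2 fold change was -0.97 ± 0.15 (adjusted p = 7.99e-05, edgeR). *ptr-1* had 13.6, 13.1, 11.5 and 11.99 CPM against 11.001, 8.52, 8.08 and 8.25 CPM, a log2 fold change of -0.47 ± 0.11 (adjusted p = 0.00469, edgeR), without overlap, although 1 mutant library was close to the lowest wild-type library. *ptr-2* had 142.3, 129, 147 and 141 CPM against 113, 123, 113 and 126 CPM, the smallest called change, at -0.22 ± 0.05 (adjusted p = 0.002, edgeR). Its groups did not overlap.

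*ptr-19* had 8.35, 4.74, 4.55 and 6.66 CPM in wild type and 4.98, 3.09, 2.79 and 3.84 CPM in mutants, and 1 mutant library lay above 2 wild-type libraries. Its log2 fold change was -0.71 ± 0.20 (adjusted p = 0.0175, edgeR). The call was lost when wild-type replicate 1 was left out (adjusted p = 0.11) and when mutant replicate 2 or 3 was left out (0.0674 and 0.0693). *ptr-10*, whose promoter is widely used to mark glia, had 10.2, 11.2, 9.11 and 8.20 CPM against 8.32, 6.92, 6.72 and 7.45 CPM, with a log2 fold change of -0.39 ± 0.12 (adjusted p = 0.0266, edgeR) and 1 mutant library above the lowest wild-type library. This call was lost without wild-type replicate 1 or 2 (adjusted p = 0.0698 and 0.0962) and without mutant replicate 2 or 3 (0.0826 and 0.0797). *ptr-1* and *ptr-10* share 80 and 92 exonic bases with other genes, so that a small part of their reads could not be told apart.

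**Figure D2:**
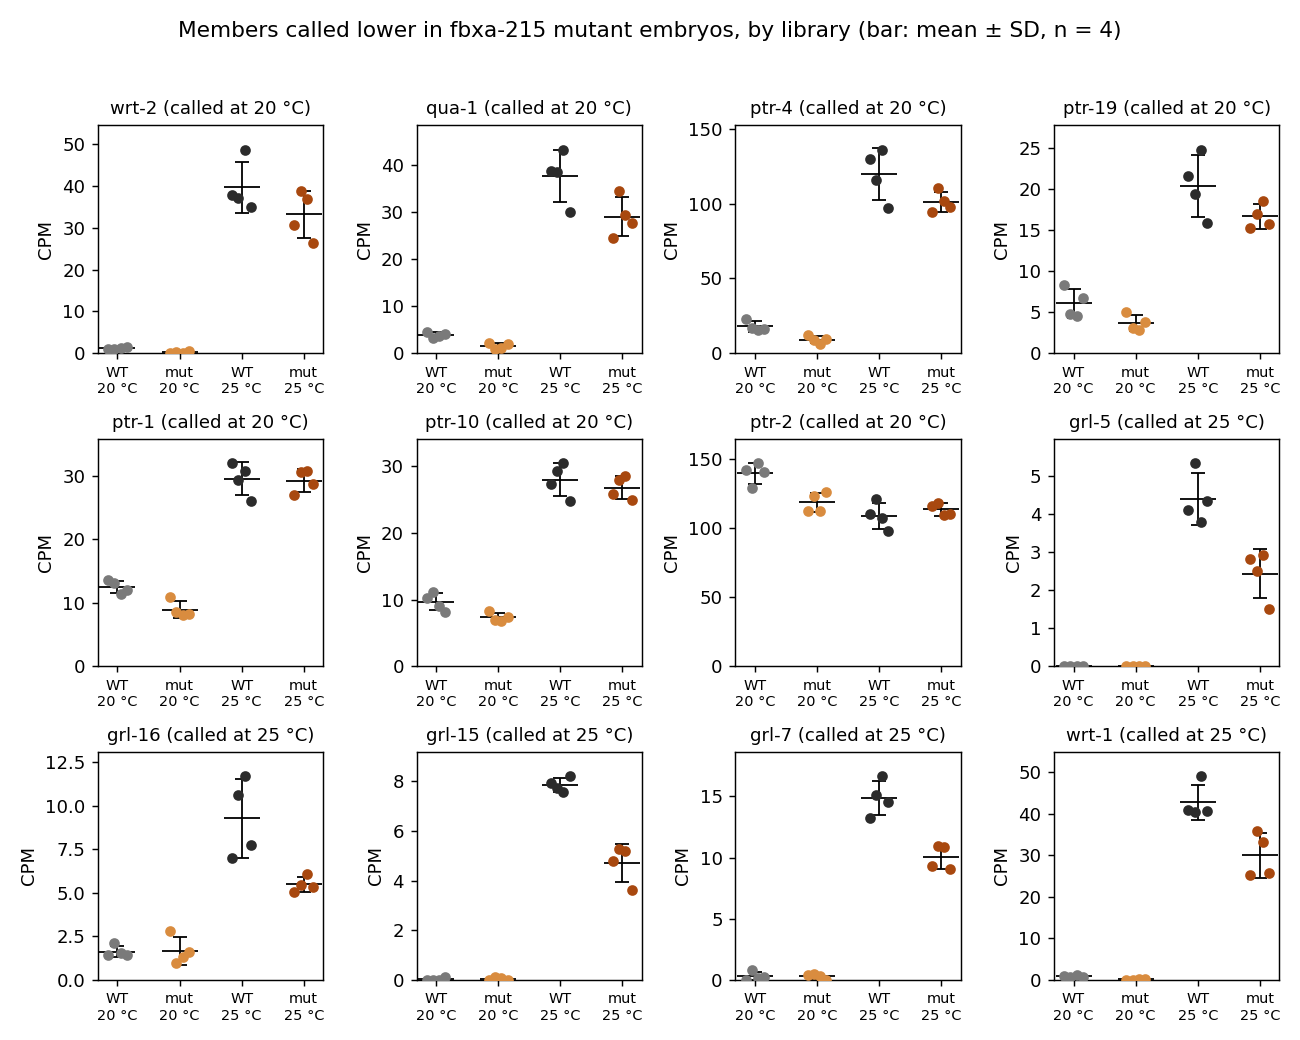
Levels in CPM (vertical axis, linear from 0) of the 12 members called lower in mutant embryos, 7 at 20 °C and 5 at 25 °C. Points are single libraries of the 4 groups, with WT for wild type and mut for the *fbxa-215* mutant, and bars give the mean ± SD. At 25 °C the 4 mutant libraries of *grl-15* lie between 3.62 and 5.26 CPM, all below the wild-type libraries at 7.57 to 8.21 CPM.

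Epidermis and muscle markers were mostly lower in mutants at 20 °C, while the other lists held few calls. Of 11 tested genes of a 13-gene epidermis list, 7 were lower and 2 higher in mutants, with a median of -0.26, and the list's summed level was 2568 to 2956 CPM in wild type and 2285 to 2681 CPM in mutants. Those lower were the cuticle collagen genes *dpy-2*, *dpy-3*, *dpy-7*, *dpy-10*, *dpy-17* and *sqt-3* and the junction gene *ajm-1*, and those higher were the early fate regulators *lin-26* and *elt-1*. Of 8 muscle genes, 5 were lower and none higher (median -0.58), with summed levels of 247 to 301 CPM in wild type and 192 to 242 CPM in mutants. In the neuron, intestine and maternal lists 1 of 7, 1 of 5 and 2 of 16 tested genes were lower and 0, 1 and 2 higher (medians -0.47, -0.07 and -0.06). Of 12 early zygotic genes 1 was higher and none lower, and 10 of the fold changes were positive (median 0.11). Of the epidermis list, *rol-6* was at 0 in wild type at 20 °C. The part of each list in the falls of the members was not tested. In a fit with the stage score as covariate none of the 7 members was called, and 245 genes were called over the whole table. The score nearly separated the strains at 20 °C, so this fit can hardly tell a difference between strains from a difference in score. In that fit the adjusted p of *wrt-2* was 0.0659 at a log2 fold change of -2.34, that of *ptr-2* was 0.0692 at -0.26, and those of the other 5 were between 0.188 and 0.929.

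At 25 °C the called members were mostly ground-like genes. The ground-like genes *grl-15*, *grl-7*, *grl-16* and *grl-5* and the warthog gene *wrt-1* were lower in mutants, and no member was higher, of 54 tested. Over all 11945 genes tested at 25 °C, 2.04% were called lower and 2.09% higher, against 9.26% of the tested members, all lower. None of the 5 passed a fold change of 2, as 0.251% of all genes did downwards. The 4 *grl* calls were of 14 tested *grl* genes and the *wrt* call of 7 tested *wrt* genes, while 22 *ptr*, 7 *grd* and both *ptc* genes, *qua-1* and *hog-1* gave no call. The median log2 fold change was -0.24 over the 54 members and -0.002 over all genes, and 46 of the 54 values were negative. An unadjusted p under 0.05 was reached by 22 members, again without a share of all genes beside it. No member was called higher by DESeq2 or limma-voom.

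The summed level of the 31 *grl* genes was 55.3 to 61.0 CPM in wild type and 38.7 to 45.8 CPM in mutants at 25 °C. *grl-15* had 7.93, 7.74, 7.57 and 8.21 CPM in wild type and 4.78, 5.26, 5.21 and 3.62 CPM in mutants, a log2 fold change of -0.74 ± 0.13 (adjusted p = 0.00663, edgeR). The groups were well apart, and 27 of its exonic bases overlap a gene on the opposite strand. *grl-7* had 13.3, 15.1, 16.6 and 14.6 CPM against 9.30, 10.97, 10.9 and 9.09 CPM, a log2 fold change of -0.57 ± 0.10 (adjusted p = 0.00712, edgeR), again without overlap. Both kept their calls when any single library was left out.

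The other 3 calls were lost without single libraries. *grl-16* had 7.02, 10.6, 11.7 and 7.73 CPM in wild type and 5.04, 5.45, 6.09 and 5.33 CPM in mutants, with a log2 fold change of -0.76 ± 0.16 (adjusted p = 0.0168, edgeR). *grl-5* had 4.12, 5.35, 3.78 and 4.34 CPM against 2.82, 2.51, 2.93 and 1.51 CPM, with a log2 fold change of -0.85 ± 0.20 (adjusted p = 0.0272, edgeR). *wrt-1* had 40.8, 40.4, 49.1 and 40.7 CPM against 25.3, 35.8, 33.2 and 25.6 CPM, with a log2 fold change of -0.51 ± 0.11 (adjusted p = 0.0156, edgeR). In each of the 3 genes every mutant library was below every wild-type library. Leaving out mutant replicate 1 gave adjusted p-values of 0.0704, 0.0641 and 0.0689 for *grl-16*, *grl-5* and *wrt-1*, and leaving out mutant replicate 4 gave 0.0699, 0.084 and 0.0731. *grl-5* was also lost without wild-type replicate 1 (adjusted p = 0.0568) or 2 (0.0749). Only *grl-7* and *grl-15* were called when mutant replicate 1 or 4 was missing, which left 2 members, whereas 12 were called without wild-type replicate 4, the 5 above and *ptc-3*, *ptr-4*, *ptr-9*, *ptr-16*, *ptr-18*, *ptr-19* and *qua-1*, all lower. Calls over all genes moved the same way, from 494 to 152 and 133 without mutant replicate 1 or 4 and to 844 without wild-type replicate 4.

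Libraries of the strains did not overlap in 10 of the 54 tested members at 25 °C, all with lower mutants, beside 6.04% of all genes tested in that direction. The 5 of these that were not called were *ptr-18*, *ptr-20*, *ptr-11*, *ptr-6* and *ptr-24*. Their log2 fold changes were -0.44 ± 0.12, -0.67 ± 0.19, -0.37 ± 0.11, -0.39 ± 0.14 and -0.23 ± 0.12, at adjusted p-values of 0.0631, 0.071, 0.0806, 0.125 and 0.247 (edgeR). At 20 °C the count was 6 of the 34 tested members, all lower in mutants, beside 11.7% of all genes tested in that direction. The 1 of these that was not already given was *ptr-5*, which was not called, at -0.29 ± 0.13 (adjusted p = 0.145, edgeR). Among members too low to be tested at 20 °C, *wrt-1* and *grd-1* were also lower without overlap, the latter with 7 counts over the wild-type libraries and 0 over the mutants. *grl-27* was higher in mutants without overlap, with 8 counts over the wild-type libraries and 25 over the mutants. The share of all untested genes without overlap was not taken.

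At 25 °C the epidermis and muscle lists held no called gene (medians -0.14 and -0.09), with summed levels that overlapped between strains, at 5208 to 5735 CPM in wild type and 4846 to 5497 CPM in mutants for epidermis. The neuron list held no called gene either (median -0.17), and the fold changes of all 8 neuron and all 8 muscle genes were negative. Of 7 tested intestine genes 1 was lower, *asp-1*, with means of 16.4 CPM in wild type and 9.96 CPM in mutants. Of 16 tested maternal genes, 6 were higher and none lower in mutants, and the list summed to 1821 to 2014 CPM in wild type and 2122 to 2258 CPM in mutants. None of 12 early zygotic genes was called, and 11 of the fold changes were positive (median 0.08). With the stage score as covariate no member was called at 25 °C, and 10 genes were called over the whole table. The median over the 54 members was then 0.05. Since the score separated the strains completely at 25 °C, this fit cannot tell a difference between strains from a difference in score.

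**Figure D3:**
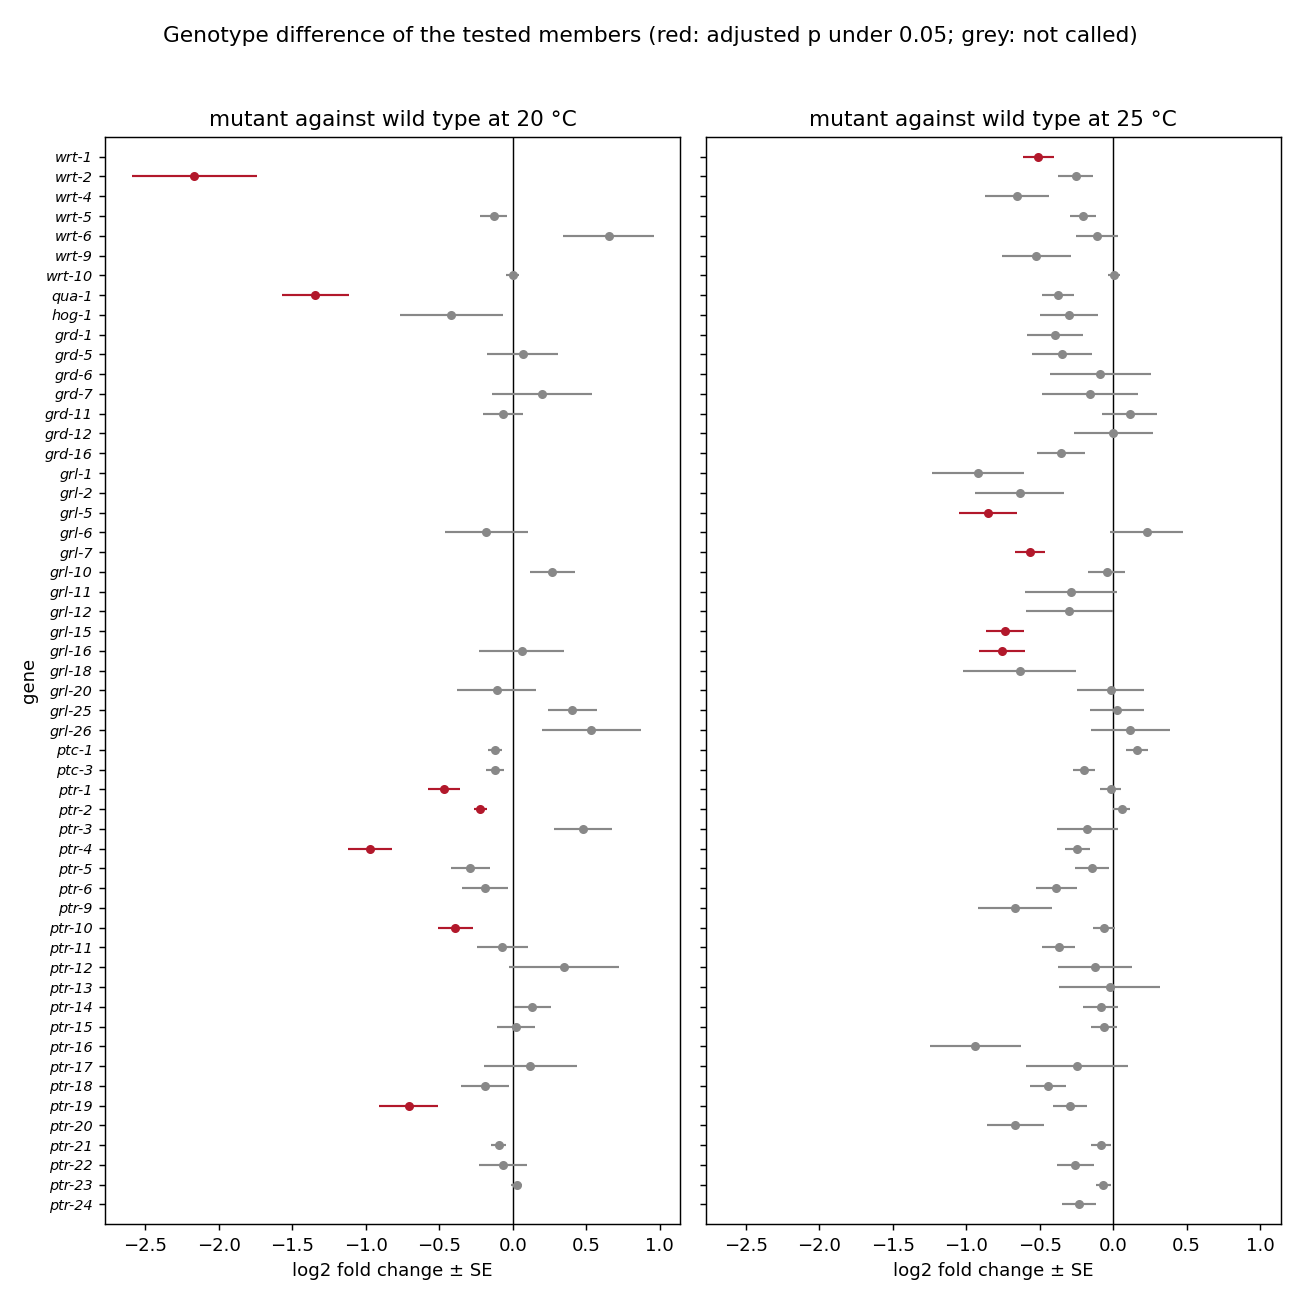
Log2 fold change ± SE of the mutant against wild type at 20 °C (34 tested members) and at 25 °C (54 tested members), on 1 horizontal scale. Red marks an adjusted p under 0.05 (edgeR), grey a member that was not called, and a row without a point was not tested at that temperature. The red points are *wrt-2*, *qua-1* and 5 *ptr* genes at 20 °C, and *wrt-1* and 4 *grl* genes at 25 °C, and all lie left of 0.

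No member was called at both temperatures with the count filter, although *wrt-1*, which was called at 25 °C and too low to be tested at 20 °C, was called lower at both without it. Whether the effect of the mutation differed was tested by an interaction term. No member passed the interaction test of edgeR at an adjusted p under 0.05, of 54 tested, where 1.16% of 12117 genes did. An unadjusted p under 0.05 was reached by 15 members, and the share of all genes at that threshold was not taken. The effect of the mutation was thus not shown to differ between temperatures for any member. DESeq2 called 3 (*qua-1*, *wrt-1* and *wrt-2*) and limma-voom none. Over all genes DESeq2 called 293 and limma-voom 97, against 141 with edgeR. The members nearest to the threshold were *ptr-4*, *wrt-1*, *wrt-2* and *qua-1*, whose log2 differences of the 25 °C effect from the 20 °C effect were 0.70 ± 0.19, 2.19 ± 0.61, 1.88 ± 0.54 and 0.94 ± 0.28 (adjusted p = 0.0714, 0.0739, 0.087 and 0.101, edgeR). All 4 were positive, as their falls were larger at 20 °C. At 25 °C *wrt-2* had 37.97, 37.1, 48.7 and 34.9 CPM in wild type and 30.8, 38.8, 36.8 and 26.5 CPM in mutants, which overlapped. *qua-1* had 38.7, 38.5, 43.3 and 30.04 CPM against 24.6, 34.5, 29.4 and 27.7 CPM, and *ptr-4* had 129.6, 116, 136 and 97.05 CPM against 94.7, 110.5, 102 and 97.5 CPM, also with overlap. Of the *grl* genes called at 25 °C, *grl-5*, *grl-15* and *grl-7* were too low to be tested at 20 °C. There *grl-5* had 0 counts in all 8 libraries, *grl-15* at most 2 and *grl-7* at most 10 in any library. *grl-16* was tested at 20 °C, where it had 1.40, 2.10, 1.52 and 1.43 CPM in wild type and 2.82, 0.988, 1.29 and 1.60 CPM in mutants, with overlap and a log2 fold change of 0.06 ± 0.29 (adjusted p = 0.914, edgeR).

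Between the batches, most members were higher at 25 °C. In wild type 41 of 52 tested members rose and 2 fell, beside 34.8% of all 11579 genes called higher and 31.3% lower, and 33 of the rises also passed a fold change of 2, as 20% of all genes did upwards. The median log2 change of the members was 1.59, beside 0.00 over all genes. All 7 tested *wrt* genes, 5 of 7 *grd*, 8 of 13 *grl*, 18 of 21 *ptr* and 1 of 2 *ptc* genes rose, as did *hog-1* and *qua-1*. In mutants 38 of 50 tested members rose and 3 fell, beside 36.3% and 33% of 11558 genes, with a median of 1.52, and 28 of the rises passed a fold change of 2, as 18.8% of all genes did. The wild-type and mutant comparisons shared no library. Members near 0 at 20 °C, such as *grl-5*, passed the count filter only through the 25 °C libraries and could only be called higher. The numbers of rises and the medians therefore partly reflect the filter, and the calls under a stricter filter are given below. Over the same contrast, 10 of 11 epidermis genes, 7 of 8 muscle genes, 7 of 8 neuron genes and 6 of 7 intestine genes were higher in wild type and 12 of 16 maternal genes lower, and the stage scores of the batches did not overlap. With that score as covariate no gene of the table, and no member, was called between batches.

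The largest rises started from counts at or near 0, and were read against 3 counts over a group. *grl-5* had 0 counts in the 4 wild-type libraries at 20 °C and 68, 85, 55 and 64 at 25 °C (rounded), so that it was at least 72.5-fold higher. *ptr-16*, a patched-related gene, also had 0 counts in wild type at 20 °C and 2.54, 3.02, 4.13 and 1.42 CPM at 25 °C, at least 45.6-fold higher. *grl-15* had 1 count over the 4 wild-type libraries at 20 °C and 485 at 25 °C, a ratio of 388 with an exact 95% interval of 69.3 to 15360. In mutants *grd-1*, a groundhog gene, had 0 counts at 20 °C and 2.69, 4.01, 3.08 and 2.11 CPM at 25 °C, at least 58.3-fold higher, and *grl-5* was at least 47.6-fold higher. These bounds set 3 counts in place of the observed 0, and the exact 95% lower limits of the same 4 ratios, in the order given, were 58.6, 36.7, 46.9 and 38.2. *wrt-1* rose by 7.92 ± 0.25 on the log2 scale in mutants and by 5.68 ± 0.14 in wild type (adjusted p = 1.02e-18 and 1.32e-13, edgeR). In each strain 2 tested members had 0 counts at 20 °C, and their bounds lay above the medians of 1.59 and 1.52. Setting these members to their bounds therefore could not move the medians.

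Few members were lower in the 25 °C batch. *grd-11*, the second groundhog gene per kilobase over the 16 libraries, had 8.64, 8.70, 11.1 and 6.35 CPM in wild type at 20 °C and 2.66, 3.52, 2.82 and 2.31 CPM at 25 °C. It changed by -1.58 ± 0.18 (adjusted p = 1.13e-06, edgeR), without overlap. In mutants it had 7.27, 9.14, 7.54 and 9.37 CPM and 3.93, 2.51, 2.86 and 2.96 CPM, a change of -1.40 ± 0.15 (adjusted p = 1.7e-08, edgeR). *ptr-2* was lower at 25 °C in wild type, with a change of -0.31 ± 0.06 (adjusted p = 0.000332, edgeR), and had 110.0, 121, 107 and 97.7 CPM there, while its change in mutants was -0.02 ± 0.04 (adjusted p = 0.664, edgeR). The mutant libraries also gave falls of *ptr-3* (-0.71 ± 0.19, adjusted p = 0.00225, edgeR) and *grl-25* (-0.51 ± 0.16, adjusted p = 0.00728, edgeR).

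**Figure D4:**
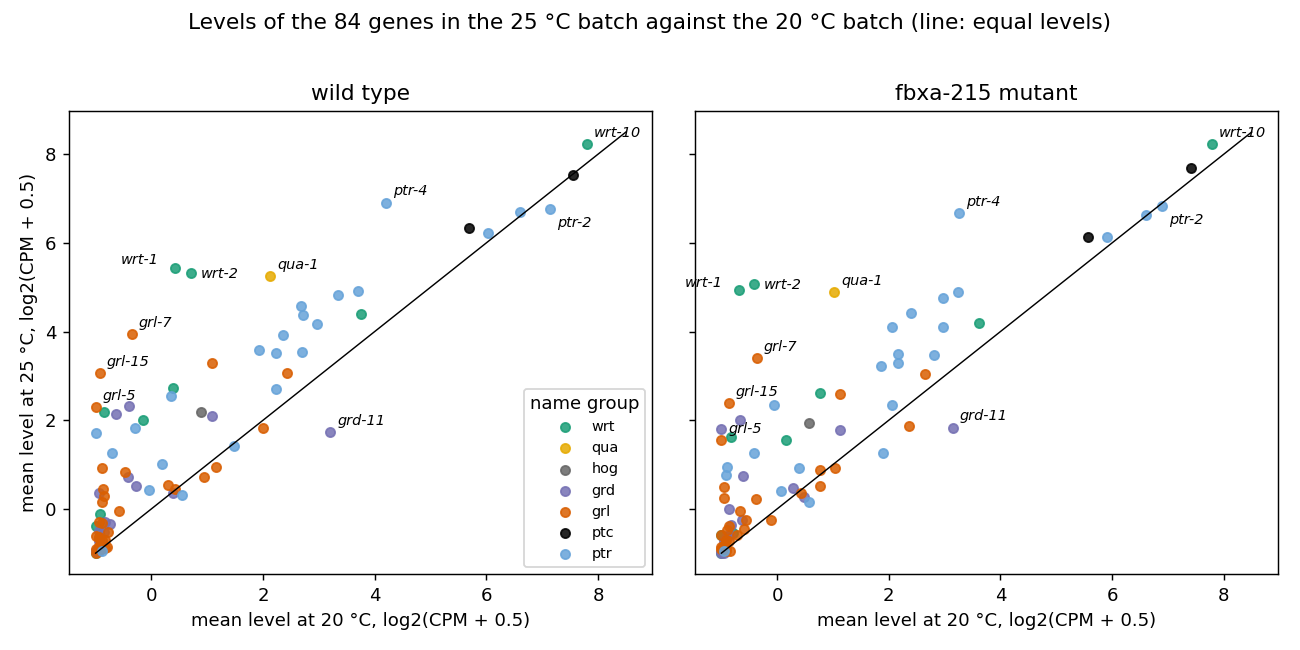
Mean level of each of the 84 genes in the 25 °C batch (vertical axis) against the 20 °C batch (horizontal axis), both as log2(CPM + 0.5), in wild type and in mutants, coloured by name group. The line marks equal levels, and most points lie above it. In wild type 41 of 52 tested members rose, and *grd-11* is the point farthest below the line.

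Other members given in full by their rank in a name group were as follows. *wrt-5*, the warthog gene next to *wrt-10* per kilobase over the 16 libraries, had 13.3, 12.4, 13.96 and 12.6 CPM in wild type and 13.3, 11.9, 10.5 and 11.6 CPM in mutants at 20 °C, and 20.3, 19.7, 21.2 and 20.5 against 18.5, 20.1, 14.7 and 17.5 CPM at 25 °C, and the strains overlapped at both. *grd-5* had 1.92, 1.55, 1.52 and 1.54 against 1.64, 2.28, 1.22 and 1.60 CPM at 20 °C and 3.94, 4.66, 3.72 and 2.71 against 3.34, 3.70, 2.71 and 2.04 CPM at 25 °C, with overlap at both. *grl-10* had 3.77, 5.98, 4.86 and 4.82 against 5.50, 5.93, 6.52 and 5.12 CPM at 20 °C and 8.72, 7.23, 7.15 and 8.55 against 8.06, 8.15, 8.36 and 6.19 CPM at 25 °C. None of these 3 genes passed the test between strains. *hog-1* had 5.03, 2.96, 4.33 and 3.93 CPM in wild type and 2.23, 3.82, 3.52 and 3.62 CPM in mutants at 25 °C, which overlapped.

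Genes of the same pathway outside these names were counted from 3 lists. Of 6 sterol-sensing or dispatched-related genes none of 4 tested was called between strains at 20 °C, and 1 of 6 at 25 °C, *daf-6*, a patched-related gene that shapes glial channels, with a log2 fold change of -0.51 ± 0.10 (adjusted p = 0.014, edgeR). Of 10 genes of lipid attachment, lipoprotein uptake, proteoglycans and the Gli relative *tra-1*, 3 were lower in mutants at 20 °C and none higher, and none was called at 25 °C. Those lower were *hhat-1* and *hhat-2*, relatives of the acyltransferase that attaches a fatty acid to Hedgehog, at -0.68 ± 0.17 and -0.51 ± 0.14 on the log2 scale (adjusted p = 0.00894 and 0.0121, edgeR), and *lrp-1*, the megalin relative, with -0.25 ± 0.05 (adjusted p = 0.00124, edgeR). Of 12 regulators of epidermal and moulting genes, 4 were lower and 4 higher at 20 °C and none was called at 25 °C. The lower ones were the Grainyhead factor *grh-1* at -1.81 ± 0.31 (adjusted p = 0.000331), the Period relative *lin-42* at -0.99 ± 0.12 (adjusted p = 5.01e-06), *peb-1* at -0.57 ± 0.14 (adjusted p = 0.00769) and *blmp-1* at -0.39 ± 0.09 (adjusted p = 0.00316, all edgeR), each on the log2 scale. Those higher were *elt-1*, *lin-26*, *myrf-1* and *nhr-25*, of which *elt-1* and *lin-26* are the same calls as in the epidermis list. The epidermis list also shares *elt-3* with these regulators and *che-14* with the dispatched-related genes.

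The members were spread over all chromosomes, with 32 of the 84 (38.1%) on chromosome V, which holds 25% of the 19637 genes in the deposited comparison tables, and 13 each on IV and X. Of the 12 members called between strains, *ptr-1*, *grl-5* and *grl-7* lay on V, *ptr-2*, *ptr-10* and *grl-16* on I, *wrt-1* and *qua-1* on II, *ptr-19* and *grl-15* on III, and *wrt-2* and *ptr-4* on X. Exons of 30 members overlap those of another gene, and 15 members lie within 10 kb of another member.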

How the data were processed

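Paired reads of 16 non-directional libraries were trimmed by the authors with Trimmomatic (v0.39) and quantified with Salmon (v1.5.1), with WBcel235 named as the genome build per the labels. The transcriptome release is not given in the sources used here. The authors deposited estimated counts per gene, 1 table for each temperature, in which 27.4% of values were not whole (tolerance 0.01). The authors also deposited log2 values per library, used here only to check that each of the 16 count columns matched its own library (lowest correlation 0.67), and DESeq2 fold changes and adjusted p-values, which were not used. Replicates differed by more than counting noise (chi-square per degree of freedom 1.97 to 14.4). The highest values, 12.0 and 14.4, were those of wild-type replicate 4 at 25 °C against replicates 2 and 3, and the next highest was 6.70.

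Estimated counts were rounded to whole numbers and fitted over all genes by quasi-likelihood (edgeR v4.0.16 under R v4.3.3), with genes kept by filterByExpr, TMM factors and no covariate. Adjustment of p-values followed Benjamini and Hochberg over all genes tested, and a gene was called at an adjusted p under 0.05. The standard error came from the F statistic. Strains were compared within each temperature, temperatures within each strain, and the interaction over 16 libraries. CPM used library sizes scaled by TMM over all libraries. Members in a group at 0 were read against 3 counts over that group. Each comparison was repeated with limma-voom (v3.58.1) and with DESeq2 (v1.42.0), with upper-quartile or RLE scaling, no count filter or at least 10 counts in every library, a replicate block, the stage score as covariate, only genes of the deposited comparison tables, all 16 libraries in one fit, a fold change above 2, and each library left out. Exonic lengths, positions and overlaps came from Ensembl release 115 of WBcel235, in which all 84 members were found.

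The members, the lists and the tests were chosen with earlier results of these data known. Values in every library are given for members past the fold change of 2 between strains, for the 5 called members with the largest change at each temperature, for the 2 most abundant members of each name group per kilobase and for members called in the interaction. The 3 called members with the largest rise and with the largest fall between temperatures were named, and other members were named after their values were seen. Sequences were not used here.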

Additional observations from a re-analysis of the deposited data

Results flagged for a closer look

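Members named by the rules given above were checked in each group for a library far from the other 3, by the gap to the nearest library divided by the group's range. Members named only after their values were seen, *ptr-10* among them, were not checked. Of 96 pairs of member and group (24 members), 9 stood apart. The 96 include pairs at 0 in every library, such as *grl-5* at 20 °C, in which no library can stand apart. For normally spread values chance gives about 1 in 20 groups, which need not hold for counts near 0. Above the other 3 libraries, *wrt-2* was at 0.560 CPM in mutant replicate 4 at 20 °C (others 0.131 to 0.185), *ptr-1* at 11.001 CPM in mutant replicate 1 at 20 °C (others 8.08 to 8.52) and *wrt-1* at 0.272 CPM in mutant replicate 3 at 20 °C (others 0.0618 to 0.0801). In wild type at 20 °C, *grl-16* was at 2.10 CPM in replicate 2 (others 1.40 to 1.52), *grl-15* at 0.102 CPM in replicate 4, which is 1 count (others 0), and *grd-5* at 1.92 CPM in replicate 1 (others 1.52 to 1.55). *wrt-1* was at 49.1 CPM in wild-type replicate 3 at 25 °C (others 40.4 to 40.8). Below the other 3 libraries, *grl-10* was at 6.19 CPM in mutant replicate 4 at 25 °C (others 8.06 to 8.36) and *ptr-23* at 93.3 CPM in wild-type replicate 3 at 20 °C (others 97.2 to 98.01). No explanation of these values was tested.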

How the results depend on the processing

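Counts of members called at 20 °C (7) became 0 with the stage score as covariate and 2 with a fold change above 2, and lay between 5 and 8 when single libraries were left out. At 25 °C the 5 calls became 9 without a count filter, 0 with the stage score, 8 with all 16 libraries in one fit and 0 with a fold change above 2, and lay between 2 and 12 without single libraries. Over all genes, the fits without single libraries gave 1217 to 1691 calls at 20 °C, against 1813, and 133 to 844 at 25 °C, against 494. Without a count filter 696 genes were called at 25 °C, and 801 with all 16 libraries in one fit. In the interaction, where edgeR called 0, DESeq2 called 3, the fit without a count filter 7, the stage score 5 and the genes of the deposited comparison tables alone 1, and leaving out single libraries gave 0 to 4. Over all genes these interaction fits called 141, 293, 448, 421 and 231 in the same order, and 19 to 420 without single libraries. Between temperatures, the 43 members called in wild type and 41 in mutants became 24 and 25 with at least 10 counts in every library, a filter that removes members near 0 at 20 °C, and 0 and 0 with the stage score, and without single libraries they lay between 42 and 44 and between 39 and 42. The filter of 10 counts gave 5728 and 6527 calls over all genes, against 7657 and 8004.

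With the stage score as covariate some directions turned: *ptr-19* was 0.060 at 20 °C, the median over members and *wrt-1* were 0.052 and 0.14 at 25 °C, *grd-11* and *ptr-16* were 0.74 and -2.71 between temperatures in wild type, and *grd-1*, *grd-11*, *grl-25* and *ptr-3* were -0.11, 0.10, 1.38 and 1.44 in mutants. The score separated the temperatures completely, at 25 °C also the strains, and at 20 °C nearly so. These fits therefore cannot tell the groups from the score, and between strains at 20 °C can hardly do so. Over all genes the stage score left 245 calls at 20 °C, 10 at 25 °C and 421 in the interaction.

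A replicate block, which treats libraries of the same number as paired, gave 7 calls at 20 °C, 7 at 25 °C, 4 in the interaction (*ptr-4*, *qua-1*, *wrt-1* and *wrt-2*), and 43 and 41 between temperatures. Deviations of same-numbered libraries correlated weakly (-0.06 to 0.11). Between strains at 20 °C these correlations were all positive, at 0.03 to 0.11, and replicates 1, 3 and 4 correlated best with their own number. At 25 °C no replicate did. Whether the numbers pair the libraries was thus not settled. Over all genes the block gave 1996 calls at 20 °C, against 1813 without it. It gave 461 at 25 °C, against 494, and 217 in the interaction, against 141. Other alternatives kept every count within 1.5 times. Depth limits the low members, since 29 of 84 reached 10 counts in every wild-type library at 20 °C.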
